A study of Mus musculus with 21 samples.

Results

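The genes described here are the 3 SERCA pumps and 2 small proteins that inhibit them, 5 genes chosen by name (Atp2a1, Atp2a2, Atp2a3, Pln and Sln) with 6 probes, out of 35527 gene names and 55681 probes on the array. Every probe whose gene name in the scanner output equals one of the 5 was taken, and none was left out for its signal. They were measured in single myofibers of hind limb muscles from CD1 mice at 3 months of age. The labels give no genetic change and no treatment of the animals for either group. There were 11 type 1 myofibers, all from soleus, and 10 type 2B myofibers, all from the extensor digitorum longus (EDL). Each type came from 6 mice, and 3 of the 9 mice gave both types. Each myofiber was freed with collagenase, a piece of it was typed by its myosin heavy chain on a protein gel, and the amplified RNA of the rest was hybridized to an array of its own. Type and muscle cannot be told apart in this design. Myofibers are named by muscle (S or E), a number and, after the point, the mouse.

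A muscle relaxes when calcium ions leave the cytosol, and SERCA pumps carry them back into the sarcoplasmic reticulum at the cost of ATP. Atp2a1 encodes SERCA1, the pump of fast skeletal muscle, Atp2a2 encodes SERCA2, the pump of slow and cardiac muscle with a splice form found in most tissues, and Atp2a3 encodes SERCA3, best known from non-muscle cells. Pln (phospholamban) and Sln (sarcolipin) are short proteins of the same membrane that bind the pump and lower its activity. Pln is known above all from the heart, and both have been described in slow skeletal muscle.

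The first 30 bases of the 60-base probes of Atp2a1, Atp2a2, Pln and Sln are printed here because the values of these genes below are signals of these probes. Positions are those of the array annotation, build mm9, with the strand of the probe in brackets. Whether a probe lies in coding sequence or in an untranslated region was not determined, since no annotation of this build was used here.
Atp2a1 probe A_51_P244856, chr7:133591703-133591762 (-): tgccgtggaggaaggccgcgccatctacaa
Atp2a2 probe A_52_P168097, chr5:122910660-122910719 (-): tcgagttgaaccttcccacaagtctaagat
Atp2a2 probe A_51_P451075, chr5:122903704-122903763 (-): gttccacactgtattattgtaacttattta
Pln probe A_52_P22324, chr10:53064944-53065003 (+): caaaacagtttatgcctaactttgcaaacc
Sln probe A_52_P413395, chr9:53701574-53701633 (+): gccttagctttgttccctagcaaatgtact
Each probe is 1 spot on the array, and 0 other probes have the same sequence. The array lists 2 of the 3 RefSeq transcripts of Atp2a2 for each of its 2 probes, but not the same 2, and the second probe is the nearer of both to the 3′ end of this gene on the minus strand. Of the whole probes 55.0% of the bases are G or C in Atp2a1, against 35.0% in the second Atp2a2 probe and in Pln.

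Signals are given as log2 of the intensity after quantile normalization between the 21 arrays, so that 1 unit is a doubling. They are relative within an array, and the total RNA of a myofiber was not measured. A difference is always type 2B minus type 1 and was estimated with limma with the mouse as a random block. A probe was called where its p-value passed 0.05 after Bonferroni adjustment over the 46928 probes tested. This rule called 672 probes, 1.43% of those tested, with 0.612% higher in type 2B and 0.82% higher in type 1. All 6 probes of the 5 genes were tested. Of these, 3 were called, all higher in type 1: both probes of Atp2a2 and the probe of Sln. With the less strict Benjamini-Hochberg adjustment at 0.05, which 7.57% of the probes pass (3.48% higher in type 2B and 4.09% higher in type 1), Pln also passed as higher in type 1 and Atp2a1 as higher in type 2B, which makes 5 of the 6 probes. The probe of Atp2a3 passed neither. The myofibers of the types did not overlap at the same 3 probes that were called, a state found at 1.34% of all probes tested.

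The arrays differed in brightness by slide. The 75th percentile of the unscaled signal was 62.4 to 520 on the type 1 arrays and 52.8 to 422 on those of type 2B, and between 38.7% and 79.8% of an array's spots exceeded the background clearly (the flag well above background of the scanner software). Slides 1, 2 and 3 held both types in equal numbers (16 myofibers). In the check of the labels, Myh7, the slow myosin heavy chain, was between 9.22 and 16.28 in type 1 and between 6.78 and 7.84 in type 2B, and Myh4, the 2B myosin, was between 1.80 and 8.61 in type 1 and between 14.42 and 15.81 in type 2B. Soleus myofiber S6.4 stood apart: its Myh7 was 9.22, whereas the other 10 type 1 myofibers were at 15.53 or more, and its Myh2, the 2A myosin, was 15.22, the highest of all. Results are therefore also given without S6.4. Other myofibers also had signal of a second myosin. Myh2 was well above background in 8 of 11 type 1 and 2 of 10 type 2B myofibers, and was 13.03 in S16.3. Myh1, the 2X myosin, was so in 3 of 11 type 1 and 8 of 10 type 2B myofibers, up to 12.04 in E8.3. In the deposited value table, which lists 3687 features and none of the 6 spots described here, the columns of the type 2B myofibers E13.3 and E12.5 follow each other's scanner output (rank correlation 0.999 and 1.000, against 0.897 and 0.897 with their own). The mouse of these 2 myofibers is therefore uncertain, and values that rest on it are also given with their mice exchanged, an alternative chosen after seeing the data. The labels give the mice as male and the study's methods as female. The Y-linked gene Ddx3y was well above background in all 21 myofibers and Xist in 9 or fewer with either of its 2 probes. Eif2s3y, also Y-linked, was so in 10 type 1 and 7 type 2B myofibers, and the Y-linked Kdm5d in 7 and 7. The highest Xist signal was 9.89, in a type 1 myofiber, and the highest Ddx3y signal was 9.07, in a type 2B myofiber.

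**Figure D1:**
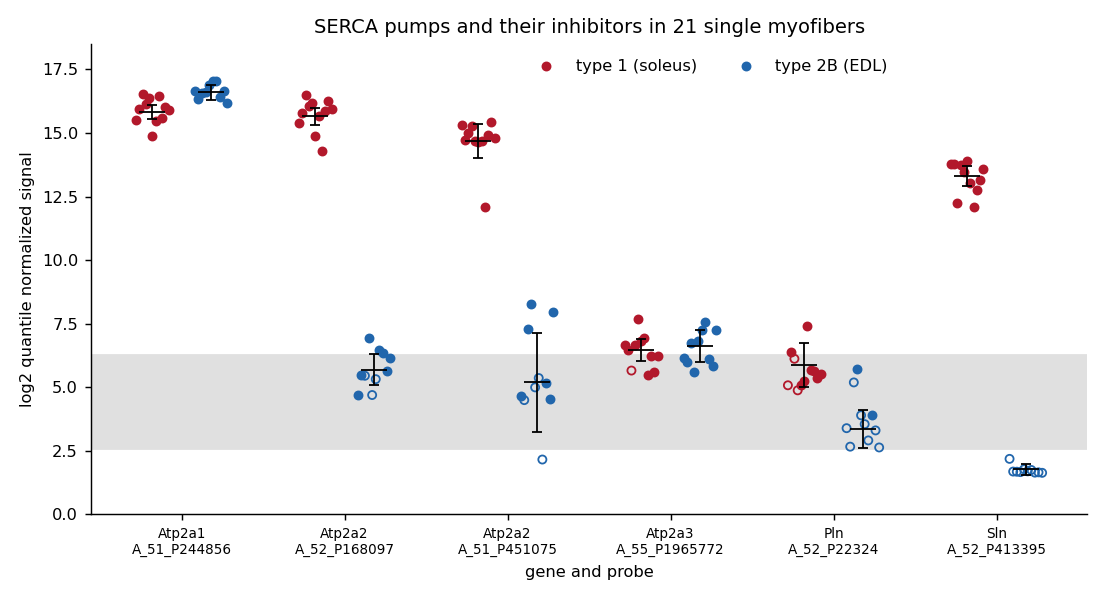
Log2 quantile normalized signal (vertical axis) of the 6 probes (horizontal axis) in 11 type 1 (red) and 10 type 2B (blue) myofibers. Points are myofibers, open where the spot was not well above background, black marks are the mean and SD over the 6 mice of a type, and the grey band spans the lowest signal well above background on each array (2.57 to 6.26). Atp2a2 and Sln separate the types, with 0 of 10 type 2B myofibers well above background for Sln, while Atp2a1 is bright in both.

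Atp2a2, the slow pump, was expressed far more in type 1 myofibers. Probe A_52_P168097 read 14.29 to 16.48 across the type 1 myofibers (median 15.86) and 4.70 to 6.92 across those of type 2B (median 5.56). The lowest type 1 myofiber was S6.4 and the highest type 2B myofiber was E13.3, so that the types did not overlap. Over mice the means were 15.65 ± 0.34 (SD, n = 6) and 5.69 ± 0.61, in the same order. The difference was -9.99 (SE 0.30, Bonferroni adjusted p = 6.31e-16 in limma), or 1018-fold, and -8.73 with a normexp background correction. In type 2B this spot was well above background in 7 of 10 myofibers, and in type 1 in 11 of 11.

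The second Atp2a2 probe, A_51_P451075, showed the same direction with more spread. It read 12.08 to 15.43 across the type 1 myofibers (median 14.79) and 2.16 to 8.29 across those of type 2B (median 5.09). Its difference was -9.18 (SE 0.59, Bonferroni adjusted p = 7.27e-09), or 580-fold, and -7.73 with normexp. The type 2B myofibers were unequal at this probe: E13.3 (8.29), E9.6 (7.97) and E12.5 (7.3) were above the other 7, which were at 5.36 or less. At the first probe these 3 were at 6.92, 6.15 and 5.45, within or close to the range of the other type 2B myofibers. The SD over type 2B myofibers was 1.87 at the second probe and 0.74 at the first, against a median of 0.82 over all probes tested. In 6 of 10 type 2B myofibers the second spot was well above background.

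Sln, sarcolipin, was expressed in type 1 myofibers and was not well above background in those of type 2B. Its probe read 12.08 to 13.91 across the type 1 myofibers (median 13.46) and 1.64 to 2.19 across those of type 2B (median 1.68). It was well above background in all 11 type 1 myofibers and in 0 of 10 type 2B myofibers, so that type 2B has only an upper bound. Set against the lowest signal well above background on each type 2B array, Sln was 413-fold higher in type 1. This is an approximate bound, since a spot above that lowest signal can still lack the flag. In E10.4 the Pln spot, at 3.39 against a lowest of 3.21, was not well above background. No test was made of this bound. The limma fit that called Sln (Bonferroni adjusted p = 4.92e-20) used type 2B signals at the background. Its probe entered the tests through type 1, with 11 of 11 spots positive and significant, against 1 of 10 in type 2B. Differences given for Sln below are fitted to type 2B signals at the background and measure no fold. The means over mice were 13.32 ± 0.40 (SD, n = 6) and 1.77 ± 0.21. Within type 1, S6.4 (12.08) and S11.3 (12.23) were the lowest and S16.3 (13.91) the highest.

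Pln, phospholamban, was dim in both types. It read 4.88 to 7.40 across the type 1 myofibers (median 5.52) and 2.63 to 5.72 across those of type 2B (median 3.47). The ranges overlapped: 3 of 11 type 1 myofibers were above every type 2B myofiber, and 8 of 10 type 2B myofibers were below every type 1 myofiber. Type 2B myofibers E13.3 (5.72) and E12.5 (5.19) were the 2 inside the type 1 range. The difference of -1.94 (SE 0.37), or 3.84-fold, did not pass Bonferroni (adjusted p = 1) but passed Benjamini-Hochberg (adjusted p = 0.0012). The means over mice were 5.87 ± 0.88 and 3.35 ± 0.75 (SD, n = 6), and each of the 6 type 1 means was above each of the 6 type 2B means. Only 8 of 11 type 1 spots and 2 of 10 type 2B spots were well above background, and with a normexp background correction the difference was -0.61, so its size is not fixed by these data.

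Atp2a1, the fast pump, had a high signal in both types and somewhat more in type 2B. Whether its probe also reads transcripts of Atp2a2, which was bright in type 1, was not tested. It read 14.89 to 16.55 across the type 1 myofibers (median 15.96) and 16.19 to 17.06 across those of type 2B (median 16.63). The ranges met between 16.19 and 16.55, and 7 of 10 type 2B myofibers were above every type 1 myofiber. The difference was 0.74 (SE 0.21, 95% interval 0.31 to 1.17), or 1.67-fold, and it did not pass Bonferroni (adjusted p = 1) but passed Benjamini-Hochberg (adjusted p = 0.027). With the arrays scaled by their 75th percentile in place of quantile normalization, the difference was 1.04 (SE 0.27), so its size depends on the scaling. The means over mice were 15.83 ± 0.29 and 16.59 ± 0.30 (SD, n = 6), and the 6 type 2B means were all above the 6 type 1 means. S6.4, at 16.46, was the second highest type 1 myofiber for this gene while it was the lowest for Atp2a2 and Sln, and S16.3 had the lowest Atp2a1 (14.89) and the highest Sln (13.91).

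Atp2a3 was at a similar low level in both types. Its probe (A_55_P1965772, chr11:72806289-72806348, plus strand) read 5.49 to 7.69 across the type 1 myofibers (median 6.48) and 5.58 to 7.58 across those of type 2B (median 6.45). The difference of 0.12 (SE 0.30, 95% interval -0.50 to 0.73, Benjamini-Hochberg adjusted p = 0.90) had an interval on both sides of 0. The spot was well above background in 10 of 11 type 1 and 10 of 10 type 2B myofibers.

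The means over mice were also compared with an exact permutation test, two-sided, over the 924 ways to divide 12 means into 6 and 6. For both Atp2a2 probes, Sln, Pln and Atp2a1 the p-value was 0.0022, the smallest that this test can give, and for Atp2a3 it was 0.65. Here 6 probes were tested, and mice 3, 4 and 9 enter on both sides.

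**Figure D2:**
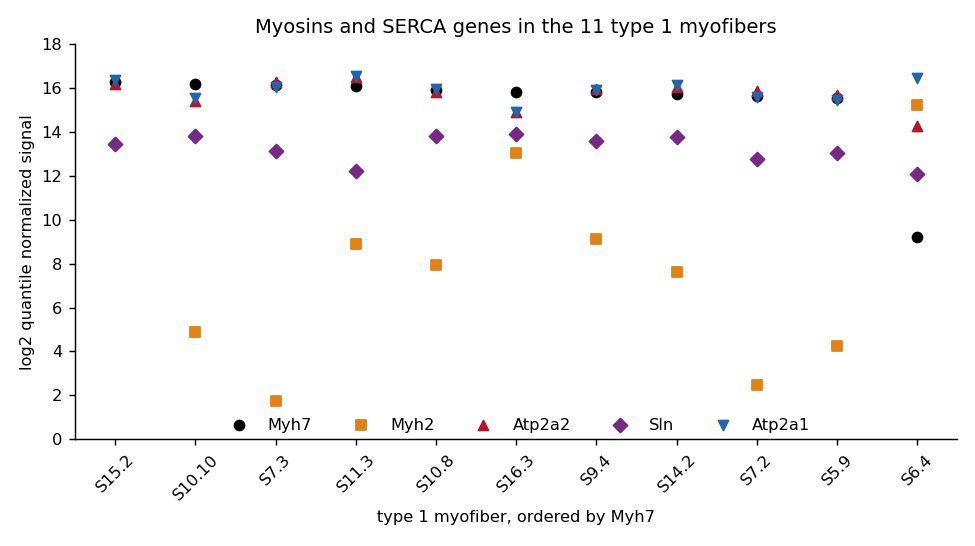
Log2 quantile normalized signal (vertical axis) of Myh7, Myh2, Atp2a2 (probe A_52_P168097), Sln and Atp2a1 in the 11 type 1 myofibers, ordered by Myh7 from high to low (horizontal axis). S6.4, at the right, is the lowest for Myh7, Atp2a2 and Sln and has Atp2a1 at 16.46. The Myh2 spot of S15.2 had an outlier flag and is not shown.

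Without S6.4 the type 1 range narrowed for Atp2a2, to between 14.90 and 16.48 at the first probe and between 14.64 and 15.43 at the second, and Sln ran from 12.23 to 13.91. The differences were then -10.14 and -9.44 for the probes of Atp2a2 and -11.62 for Sln, with Bonferroni adjusted p-values of 4.60e-16, 3.05e-09 and 4.51e-20 in limma. Atp2a1 was at 0.80 and Pln at -1.94, both still with an adjusted p of 1. The signals of S6.4 for Atp2a2 (14.29 and 12.08) and Sln (12.08) lay below the other type 1 myofibers and above all 10 of type 2B.

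Mice that gave both types allow the comparison within an animal. In mice 3, 4 and 9 the difference at the first Atp2a2 probe was -10.05, -10.42 and -10.21, and at the second -9.06, -8.78 and -10.17. The fitted value of Sln was -11.40, -10.65 and -11.36. Pln was lower in type 2B in each of the 3, by values from -1.30 to -4.73, and Atp2a1 was higher in each, by 0.47 to 0.92. Atp2a3 went up in mice 3 and 4 (0.40 and 0.29) and down in mouse 9 (-0.94). So the first 4 genes kept 1 direction in all 3 animals, and Atp2a3 did not. Mouse 9 gave only S5.9 and E11.9, and mouse 4 only S6.4, S9.4 and E10.4. Pln was not well above background in E10.4 or E11.9, so its values in mice 4 and 9 rest on type 2B signals at the background. With the mice of E13.3 and E12.5 exchanged, mouse 3 gave -10.42 and -9.31 for the probes of Atp2a2, -1.43 for Pln, 0.91 for Atp2a1 and 0.69 for Atp2a3, and the permutation p-values of the mouse means were 0.0022 for the first 4 genes, as before, and 0.79 for Atp2a3.

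Within each of the 3 slides with both types the directions were again the same for all but Atp2a3. The difference was between -9.67 and -10.93 for the first Atp2a2 probe, between -8.37 and -9.97 for the second, between -10.98 and -12.02 for Sln, between -1.76 and -2.71 for Pln and between 0.53 and 0.94 for Atp2a1. For Atp2a3 the 3 slides gave 0.26, -0.57 and 0.86. With slide as a block in the fit of all myofibers, the differences were -10.05 and -8.93 for Atp2a2 and -11.31 for Sln, all still called.

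**Figure D3:**
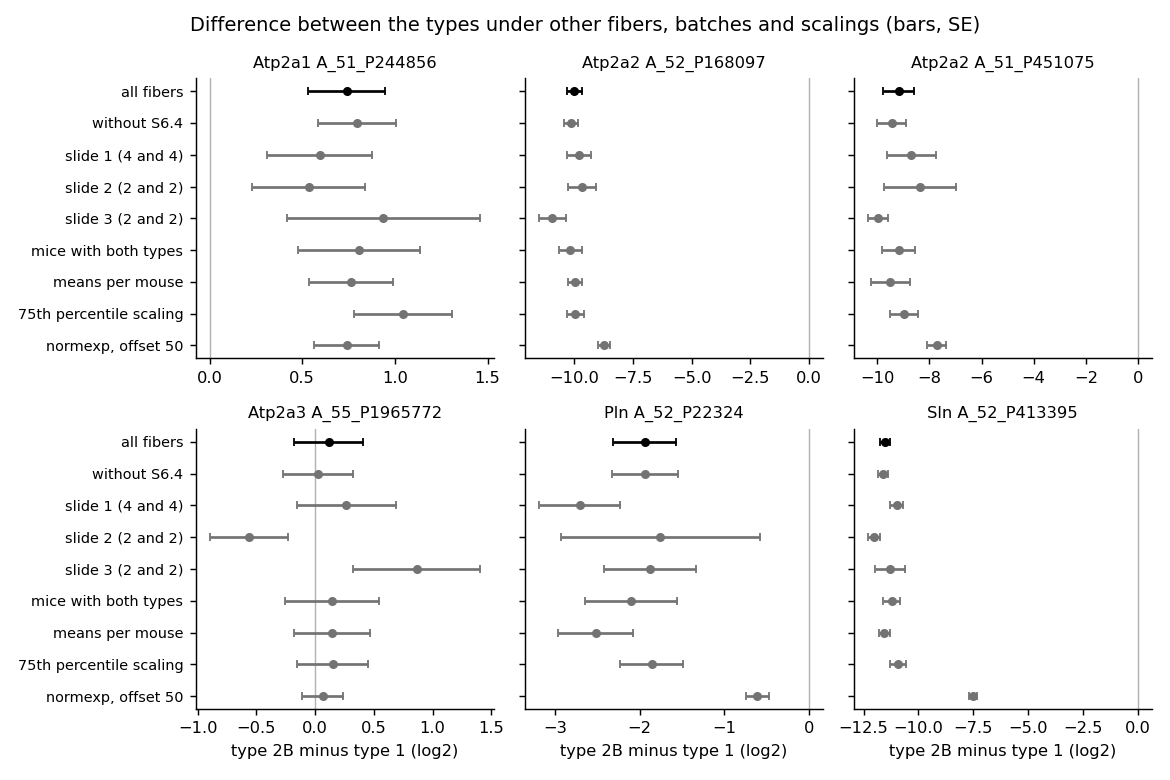
Difference between the types in log2 (horizontal axis, type 2B minus type 1, with the SE as bars) for each of the 6 probes, for all myofibers (black) and for other myofibers, batches and scalings (grey, named on the vertical axis). Axes differ between panels. Atp2a2 and Sln stay far from 0, Pln moves from -1.94 to -0.61 with normexp, and Atp2a3 crosses 0.

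Ratios between these genes within a myofiber were compared between the types, since a ratio of 2 probes on an array does not depend on how the array is scaled. How bright a probe is per molecule is not known, so only the change of a ratio between the types is given, not its level. The ratio of Atp2a1 to Atp2a2 (first probe) was higher in type 2B by 10.89 log2 units (exact permutation test over 6 and 6 mouse means, two-sided, p = 0.0022, the same after Benjamini-Hochberg adjustment over the 4 ratios). Relative to the mean of the type 1 mice, the 11 type 1 myofibers lay between -0.46 and 1.97, with S6.4 the highest, and the 10 type 2B myofibers between 9.65 and 12.85. The types did not overlap in this ratio, and of its parts Atp2a2 differed by -9.99 and Atp2a1 by 0.74 in the normalized values. Atp2a2 was well above background in 7 of 10 type 2B myofibers. It was not so in E14.3, which had the highest ratio, E12.5 and E15.3. Their ratios are lower limits and enter the change of 10.89.

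The ratio of Pln to Atp2a2 lay between -1.68 and 1.34 in the type 1 myofibers. In type 2B Pln was well above background in 2 of 10, E13.3 and E8.3, where the ratio was 8.47 and 7.27. In E14.3, E12.5 and E15.3 neither Pln nor Atp2a2 was well above background, so the ratio is not determined there. In the remaining type 2B myofibers only Atp2a2 was, and the ratio is an upper limit. The ratio of Sln to Atp2a1 was lower in type 2B (exact permutation p = 0.0022), a direction with no measured fold, since Sln was not well above background there. Nothing is read from Sln over Pln, as both probes were mostly not well above background in type 2B.

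**Figure D4:**
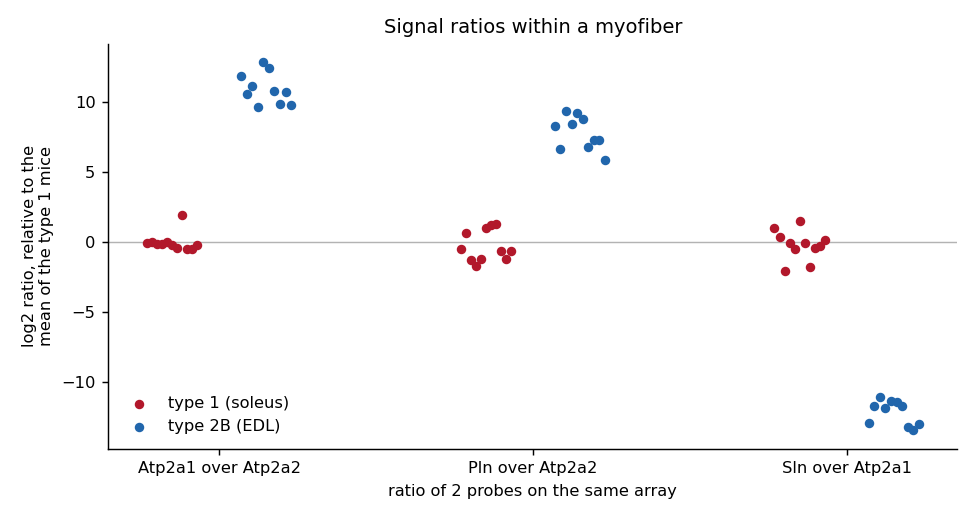
Log2 ratio of the unscaled signals of 2 probes on the same array (vertical axis, relative to the mean of the type 1 mice) for the 3 ratios named on the horizontal axis. Points are 11 type 1 (red) and 10 type 2B (blue) myofibers. Type 2B values of Pln over Atp2a2 are measured in E13.3 and E8.3, not determined in E14.3, E12.5 and E15.3, and upper limits in the rest. Those of Sln over Atp2a1 are all upper limits, and those of Atp2a1 over Atp2a2 are lower limits in E14.3, E12.5 and E15.3. The red point at 1.97 for Atp2a1 over Atp2a2 is S6.4.

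The profiles most like those of these genes over the 21 myofibers were sought among 29016 probes with a gene name, by the root mean square difference of the log2 profiles after centring. For Atp2a2 (first probe) they were Myoz2, a Z-disc protein of slow fibers (0.93), Ldhb, the heart form of lactate dehydrogenase (0.98), and Ablim1, an actin-binding protein (0.98). For Sln they were Gm5514 (0.66), which RefSeq now names as a pseudogene of Ldhb, Ldhb itself (0.79) and Myl3, the slow essential myosin light chain (1.06). A probe for a pseudogene and one for its parent may read the same transcripts. Of the 10 type 2B myofibers, Myoz2 and Ablim1 were well above background in 0, Ldhb and Gm5514 in 2 and Myl3 in 6. The type 2B part of most of these profiles is therefore at the background.

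Pln was nearest to Ptdss1, an enzyme of phosphatidylserine synthesis (0.75), Ugp2, an enzyme of glycogen synthesis (0.84), and Mdh1, the cytosolic malate dehydrogenase (0.84). These 3 differed between the types by -1.74, -0.94 and -1.50. Atp2a1 was nearest to Sfxn1, a mitochondrial serine carrier (0.27), LOC100045932 (0.29) and Gm6981 (0.29), and Atp2a3 to Col4a4, a basement membrane collagen (0.38), 4933400C05Rik (0.41) and LOC100048206 (0.42). The small values for Atp2a1 and Atp2a3 belong to profiles that vary little, so that many probes are near them.

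Other genes of calcium handling were taken from a list of 58 symbols, of which 53 were found on the array and 52 were tested with 87 probes. Of these genes 8 were higher in type 2B and 1 was higher in type 1 at the Bonferroni threshold, and 43 did not pass. In probes this is 10 of 87 or 11.5%, against 1.43% of all probes, and without mouse 3 it is 5. The median difference over the 87 probes was 0.32, and over all probes tested 0.03. The list was chosen with earlier results of these data known, so these shares and medians are given as description only. With mouse as a fixed block, which rests on mice 3, 4 and 9, the calls of Itpr1 (adjusted p = 0.056), Mrln (listed as 2310015B20Rik, 0.13), Casq1 (0.22), Camk2a (0.48), Calm3 (1) and Jph2 (1) were lost, while Pvalb, Casq2 and Stim2 stayed called in limma. With means per mouse those of Mrln (0.082), Casq1 (0.15), Calm3 (0.16), Stim2 (0.17) and Jph2 (0.20) were lost. With normexp the differences of Casq2, Stim2 and Itpr1, given below, shrank to -4.48, 1.59 and 2.72.

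Among the store proteins, which bind calcium inside the reticulum, both calsequestrins passed in opposite directions. Casq2, the slow and cardiac form, averaged 10.14 ± 1.00 over the type 1 mice and 3.20 ± 0.61 over those of type 2B (SD, n = 6), a difference of -7.37 (SE 0.34, Bonferroni adjusted p = 7.48e-12), and was well above background in 1 of 10 type 2B myofibers. Casq1, the fast form, was higher in type 2B by 2.06 (SE 0.24, Bonferroni adjusted p = 5.72e-04), and its types did not overlap. Without mouse 3, which gave 3 type 1 and 4 type 2B myofibers, Casq1 was at 1.95 and was no longer called (adjusted p = 0.85). The other 3 store genes tested (Hrc, Srl and Calr) did not pass.

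In the cytosol, parvalbumin, the calcium buffer of fast fibers, had the largest rise of the list. The 2 probes of Pvalb were higher in type 2B by 10.72 and 12.52 (Bonferroni adjusted p = 3.90e-17 and 5.76e-17). At the second of these, 3 of 11 type 1 spots were well above background. Calm3, a calmodulin gene, was higher by 1.65 at 1 probe (Bonferroni adjusted p = 0.0058), and its other probe, at 2.00, did not pass Bonferroni (adjusted p = 0.14). The call of the first was lost without mouse 2 (1.62), mouse 3 (1.73) or mouse 4 (1.61), with adjusted p-values of 0.088, 0.41 and 0.16. That of the second was gained without S15.2 (2.17, adjusted p = 0.011).

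Of the release genes, those of the channels and junctions that let calcium out, 2 of 19 passed. Itpr1, an inositol trisphosphate receptor, was higher in type 2B by 4.37 (Bonferroni adjusted p = 2.30e-05) and Jph2, which holds the reticulum to the surface membrane, by 1.96 (Bonferroni adjusted p = 0.021). The call of Jph2 was lost in 12 of 30 fits that left out a myofiber or a mouse (S5.9, S10.8, E7.7, E9.5, E10.4 or mouse 2, 3, 4, 5, 7, 8 or 9), with differences from 1.87 to 2.10 and adjusted p-values from 0.060 to 0.25. Ryr1, the release channel of skeletal muscle, had a difference of 0.69 (SE 0.21), which passed only Benjamini-Hochberg (adjusted p = 0.049). Of 10 surface transport genes 1 passed: Stim2, a sensor of store calcium, was higher by 3.73 (Bonferroni adjusted p = 1.81e-05), and by 3.13 without mouse 3 (adjusted p = 0.061).

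Of 11 kinase and phosphatase genes 1 passed, Camk2a, a calcium and calmodulin dependent kinase, with 2.46 at 1 probe (Bonferroni adjusted p = 1.63e-04) and 2.48 at the other (Bonferroni adjusted p = 0.23). Without mouse 3 the first was at 2.36 (adjusted p = 0.33), and the second was called without S9.4 (2.69) or E15.3 (2.71). The regulins are relatives of Pln and Sln. One of these was higher in type 2B: 2310015B20Rik, which RefSeq now names Mrln (myoregulin, a SERCA inhibitor of skeletal muscle), averaged 10.31 ± 0.48 over the type 1 mice and 12.39 ± 0.27 over those of type 2B (SD, n = 6). Its difference was 2.14 (SE 0.23, Bonferroni adjusted p = 1.07e-04), with no overlap of the types. The other regulin on the array, 1810037I17Rik, did not pass at any of its 3 probes, with differences from -0.25 to 0.38. Of Sln, Mrln and Pln, then, Sln was higher in type 1, Mrln in type 2B, and Pln passed only the less strict adjustment.

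**Figure D5:**
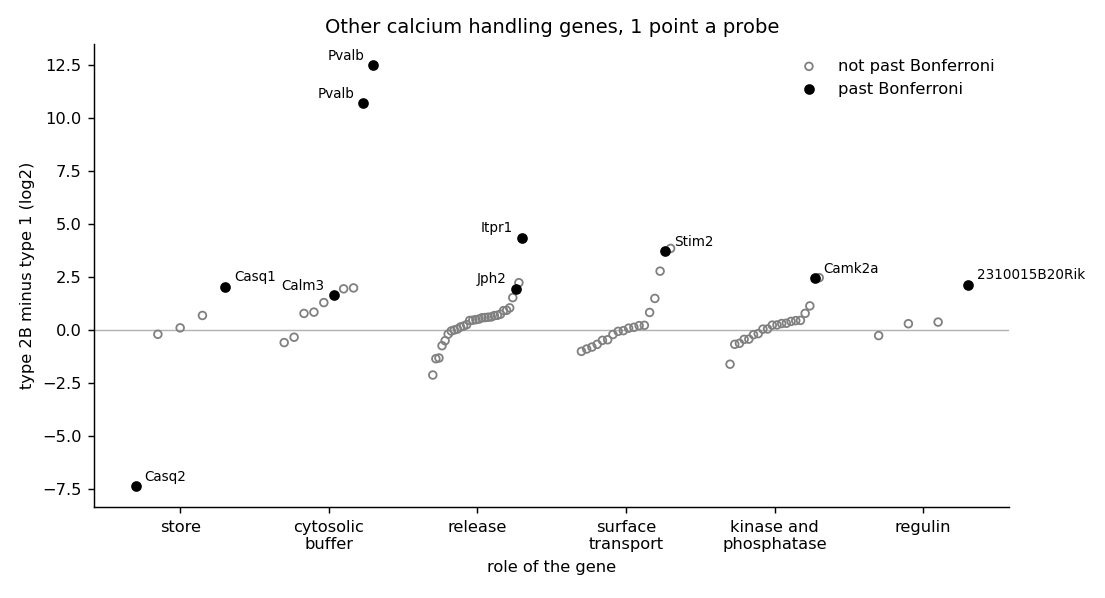
Difference in log2 (vertical axis, type 2B minus type 1) of the 87 probes of other calcium handling genes, grouped by role (horizontal axis). Filled points passed Bonferroni and carry the gene name. Casq2 is the 1 filled point below 0, and the 2 Pvalb probes are the highest.

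Markers of other cells that could cling to a myofiber (endothelium, blood, platelets, smooth muscle, connective tissue, satellite cells and nerve) were read beside these results. None of the 23 marker probes tested passed Bonferroni, and 1 passed Benjamini-Hochberg: Col3a1, a fibrillar collagen, was higher in type 1 (-2.45, adjusted p = 0.0014). The summed signal of the connective tissue markers was between 6.43 and 10.71 in type 1 and between 5.60 and 6.94 in type 2B, on the log2 scale. That of the blood markers was between 8.5 and 13.08 in type 1 and between 8.64 and 9.61 in type 2B, and the sums overlapped between the types in all 7 classes. Pdgfra, Pf4, Ppbp and Myf5 were well above background in 0 of the 21 myofibers. Ptprc, Hba-a1, Tagln, Myh11, Gp1bb at each of its probes and Kdr at 1 of its probes were so in all 21. The remaining marker probes were so in some of the myofibers. The part of such cells in the differences of the SERCA genes was not tested.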

How the data were processed

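Single-color Agilent arrays of 21 myofibers were used, as scanner output of Agilent Feature Extraction 10.7.3.1 (name and version per the labels). The authors deposited for each spot the processed intensity, which this software corrects for background and does not scale between arrays, with the mean and local background intensity and flags. The deposited value table of the series (intensity, quantile normalized by the authors as its columns show) had no values at the spots of these genes and served only to match its columns to the scanner output.

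Spots with an outlier flag were left out, the rest quantile normalized (limma 3.58.1 in R 4.3.3), taken as log2 with no pseudocount and averaged over spots of a probe. A probe was tested if 50% or more of the myofibers in either type had it positive and significant (46928 of 55681 probes). limma was fitted with mouse as a random block (duplicateCorrelation, consensus -0.017, reused where a myofiber or mouse was left out), with Bonferroni adjustment after the study's methods. "Well above background" is the flag of the software. No spot was saturated. The fit was tested on simulated data (5000 probes, 200 changed, of which 131 were called, with 0 of the unchanged). Figures were drawn with matplotlib 3.10.9 in Python 3.11.15.

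Arrays carry no read depth, and the number of myofibers and mice limits the precision. Named genes were all probes of the 5 genes, genes of the calcium list past Bonferroni with Pvalb, Casq1, Casq2 and Ryr1 always, the 3 nearest profiles of each first probe (that with the highest mean), and the myosins, sex-linked genes and cell markers as checks. The genes and lists were chosen with earlier results of these data known. Alternatives covered scaling, background, filter, mouse, slide, replicate number, test and the myofibers included.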

Additional observations from a re-analysis of the deposited data

Results flagged for a closer look

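The Sln signal of myofiber E10.4 (2.19 on the log2 scale) stood apart from the other 9 type 2B myofibers, which were between 1.64 and 1.78. Its gap to the nearest of them was 0.75 of the whole range, above Dixon's critical value for 10 samples at the 95% level. The spot was not well above background in E10.4 or in any other type 2B myofiber. Of 10 sets of type 2B values examined in this way (6 probes and 4 ratios) 1 held such a value, and chance gives about 1 in 20.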

How the results depend on the processing

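The direction of Atp2a2, Sln, Pln and Atp2a1 was the same under every alternative fitted (48 for Sln, which could not be fitted with spots that lack the positive and significant flag set to missing, and 49 for each of the other probes). Calls were lost within single slides. The second Atp2a2 probe was at -8.70, -8.37 and -9.97 within slides 1, 2 and 3, the first at -9.67 and -10.93 within slides 2 and 3, and Sln at -12.02 and -11.28 there, none past Bonferroni with 4 or 8 myofibers. With Benjamini-Hochberg in place of Bonferroni, Pln (-1.94) and Atp2a1 (0.74) passed, and with the methods' t-test so adjusted they passed too (-1.95 and 0.74). Atp2a3 turned to -0.055 with unflagged spots missing, and to -0.57 within slide 2. Normexp, with an offset of 50, brought Sln to -7.52, Pln to -0.61, the probes of Atp2a2 to -8.73 and -7.73, and of the calcium list Casq2 to -4.48, Stim2 to 1.59, Itpr1 to 2.72 and the second Pvalb probe to 9.23. With the mice of E13.3 and E12.5 exchanged, chosen after seeing the data, Atp2a2 (-10.00 and -9.19) and Sln (-11.50) stayed called.

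Leaving out each myofiber or mouse in turn gave -10.14 to -9.87 and -9.50 to -8.81 for the probes of Atp2a2, -11.64 to -11.44 for Sln, -2.34 to -1.65 for Pln, 0.64 to 0.80 for Atp2a1 and -0.0016 to 0.29 for Atp2a3, and no call was lost or gained. Without E7.7, the single myofiber of mouse 7, Atp2a3 was at -0.0016. The changes of Atp2a1 over Atp2a2 and of Sln over Atp2a1 kept their sign and their side of 0.05 under each alternative.

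The count of probes called (672) was 181 with mouse as a fixed block, 354 with means per mouse, 3551 with Benjamini-Hochberg and 3171 with the methods' t-test so adjusted. It ran from 302 (without mouse 3) to 661 in the fits without a myofiber or mouse. Of the calcium list 4 probes were called with mouse as a fixed block, 5 with means per mouse, 27 with Benjamini-Hochberg, 28 with the methods' t-test so adjusted and 5 to 12 in the fits without a myofiber or mouse, against 10. The genes named from it kept their direction in every alternative. With replicate number as a block 331 probes were called (6 of the calcium list), and Atp2a2 and Sln stayed called (-10.02, -9.13 and -11.44). The numbers do not pair the myofibers: same-numbered deviations correlated between -0.16 and 0.20 over 10 pairs, and 1 type 1 myofiber was nearest to its own number.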
